A study of Mus musculus with 3 samples.

Results

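The immune checkpoint receptors and ligands examined in TH-MYCN mouse neuroblastoma were 10 genes, listed by name under a rule that used no measured value, out of 31053 genes in the single-cell count matrices. They comprised the receptors Pdcd1 (PD-1), Ctla4, Lag3, Tigit, Havcr2 (TIM-3) and Btla, the ligands Cd274 (PD-L1) and Pdcd1lg2 (PD-L2), and the pair formed by Cd47 and its receptor Sirpa. Whole tumors from 3 mice, 1 tumor per mouse, were collected at 62, 79 and 63 days of age (tumors 1, 2 and 3), dissociated with enzymes and passed to droplet capture of single cells. All 3 mice were heterozygous for the TH-MYCN transgene, in which the tyrosine hydroxylase promoter drives MYCN in cells of the sympathetic lineage. They formed a single group with no other genotype, treatment or normal tissue, so that each comparison was made between cell classes within these tumors. All 10 genes were detected in kept cells, from 9 unique molecular identifiers (UMIs) for Tigit to 7720 for Cd47.

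Checkpoint receptors on lymphocytes dampen activation after antigen has been seen. PD-1 binds PD-L1 and PD-L2 and recruits phosphatases to the antigen receptor, CTLA-4 competes with CD28 for ligands on antigen-presenting cells, LAG-3 binds MHC class II, and BTLA binds the TNF receptor family member HVEM. TIGIT competes with CD226 for nectin-like ligands, and TIM-3 is carried by myeloid cells as well as by T cells. CD47 on the surface of many cell types binds SIRPα on phagocytes, which restrains phagocytosis and has been called a do-not-eat-me signal. In neuroblastoma, where MHC class I is often low on tumor cells, it has been asked which cells of the tumor microenvironment carry these molecules.

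Cd274 (chr19:29367455-29388095, plus strand, genome build GRCm38) and Pdcd1lg2 (chr19:29410919-29471161, plus strand) lay 22823 bases apart, each with an annotated antisense gene. Pdcd1 (chr1:94038305-94052553, minus strand) and Ctla4 (chr1:60887000-60915832, plus strand) shared a chromosome, as did Tigit (chr16:43648867-43664146, minus strand), Btla (chr16:45224315-45257670, plus strand) and Cd47 (chr16:49800533-49915010, plus strand). Lag3 was on the minus strand (chr6:124904361-124911705), and Havcr2 (chr11:46454935-46481255) and Sirpa (chr2:129592835-129632228) were on the plus strand. RefSeq promoter windows of GRCm38.p6 were at hand for 8 of the 10 genes. The 250 bases before the RefSeq start are shown for the receptors that led in T cell-like cells, Pdcd1 and Ctla4. They are also shown for Havcr2 and Cd274, which led in myeloid cells, since the comparisons below contrast these classes. For Ctla4 the RefSeq start lies inside the gene interval given above, so that its window does not precede that interval. Capitals mark the core motifs of a T cell factor (NFAT, GGAAA) and of a myeloid factor (PU.1, GAGGAA) on either strand, 2 motifs that overlap wherever GAGGAAA occurs.
Pdcd1 promoter, chr1:94052554-94052803, minus strand: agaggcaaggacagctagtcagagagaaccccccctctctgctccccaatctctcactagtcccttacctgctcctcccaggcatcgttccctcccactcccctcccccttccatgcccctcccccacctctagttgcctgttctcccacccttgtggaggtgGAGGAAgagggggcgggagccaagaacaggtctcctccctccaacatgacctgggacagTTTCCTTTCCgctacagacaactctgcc
Ctla4 promoter, chr1:60908775-60909024, plus strand: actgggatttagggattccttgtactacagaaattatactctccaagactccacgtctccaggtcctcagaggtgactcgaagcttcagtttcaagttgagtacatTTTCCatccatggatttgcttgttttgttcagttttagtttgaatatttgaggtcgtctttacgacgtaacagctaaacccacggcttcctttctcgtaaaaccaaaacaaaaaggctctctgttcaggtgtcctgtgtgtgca
Havcr2 promoter, chr11:46454681-46454930, plus strand: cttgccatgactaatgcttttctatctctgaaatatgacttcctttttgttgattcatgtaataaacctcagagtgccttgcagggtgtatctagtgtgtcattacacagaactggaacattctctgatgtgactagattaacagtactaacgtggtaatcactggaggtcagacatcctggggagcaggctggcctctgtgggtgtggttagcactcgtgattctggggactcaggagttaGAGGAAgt
Cd274 promoter, chr19:29367188-29367437, plus strand: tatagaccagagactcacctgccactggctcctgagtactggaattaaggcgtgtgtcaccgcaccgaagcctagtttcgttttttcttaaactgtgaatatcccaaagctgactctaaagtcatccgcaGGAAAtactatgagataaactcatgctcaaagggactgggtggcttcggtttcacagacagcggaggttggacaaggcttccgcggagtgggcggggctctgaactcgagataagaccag
The Pdcd1 window held 2 NFAT cores and 1 PU.1 core, the Ctla4 and Cd274 windows 1 NFAT core each, and the Havcr2 window 1 PU.1 core. Over all 32851 promoter windows of this length, 55.6% held an NFAT core and 23.3% a PU.1 core, so that such matches are common and are given as a description only.

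The raw matrices held 3257, 4327 and 6038 barcodes in tumors 1, 2 and 3. Kept cells were the 1914, 1221 and 2515 barcodes that the normalized matrices still held, 5650 in all, with median depths of 4282.5, 1594 and 1816 UMIs. Of the kept barcodes, 3 were shared by tumors 1 and 2, 1 by tumors 2 and 3, and 0 by tumors 1 and 3. Clusters were named from fixed markers, which gave 13 classes called "-like", and 168 cells stayed unnamed. Tumor 1 stood apart from the others by its depth and by the marker content of its immune classes. T cell-like cells numbered 108, 46 and 68, and those of tumor 1 formed a cluster of their own (cluster 101, with 1 cell of tumor 2) while those of tumors 2 and 3 formed cluster 100. At least 2 T cell markers were found in 99.1%, 65.2% and 25.0% of them, and at least 2 tumor markers in 3.70%, 58.7% and 64.7%. The 9 T cell markers were all detected in each tumor and summed to 5936, 2036 and 936 CPM (UMI counts scaled to a common total), against 37.1, 1195 and 1753 CPM for the 9 tumor markers. The same held for the other immune classes of tumors 2 and 3, where 54.2% to 100% of B cell-like, macrophage-like, neutrophil-like and plasmacytoid dendritic-like cells had at least 2 tumor markers, against 0 to 3.92% in tumor 1. The part that tumor RNA or depth plays in the differences between tumors was not tested.

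Levels below are CPM of the raw counts summed over the cells of a class in a tumor, for sums of at least 10 cells, with TMM scaling, and are given in the order of tumors 1, 2 and 3. Differences are log2 fold changes between a class and the average over all other classes, each class counting equally, tested by edgeR's quasi-likelihood test with Benjamini-Hochberg adjustment over 11194 genes. They lean on classes in which a gene was at 0, where the fitted fold depends on the prior count and is no bound. In a fit of only the 6 classes with a sum in every tumor, which holds fewer such zeros, the calls of Ctla4 and Pdcd1 in T cell-like, Btla in B cell-like, Sirpa, Havcr2 and Cd274 in macrophage-like and neutrophil-like, and Cd47 in tumor-like cells kept their direction and passed the threshold, whereas Lag3 failed the filter. On simulated counts, the main fit of all classes called more unchanged genes than its threshold allows. Adjusted p values and shares of all genes called in the class comparisons may therefore overstate the evidence. Calls close to the threshold, such as those of Lag3 in T cell-like and macrophage-like cells, are the least secure. Of the 10 genes, 8 passed the filter on low counts, and Tigit and Pdcd1lg2 did not. Depth decides how often a rare transcript is seen in a cell, so shares of cells with a UMI are given as counted and after thinning each cell to 500 UMIs, which left out 0 kept cells. Tumor-like cells served as the background from free RNA. Intervals are exact binomial or Poisson at 95% and cover counting error only.

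**Figure D1:**
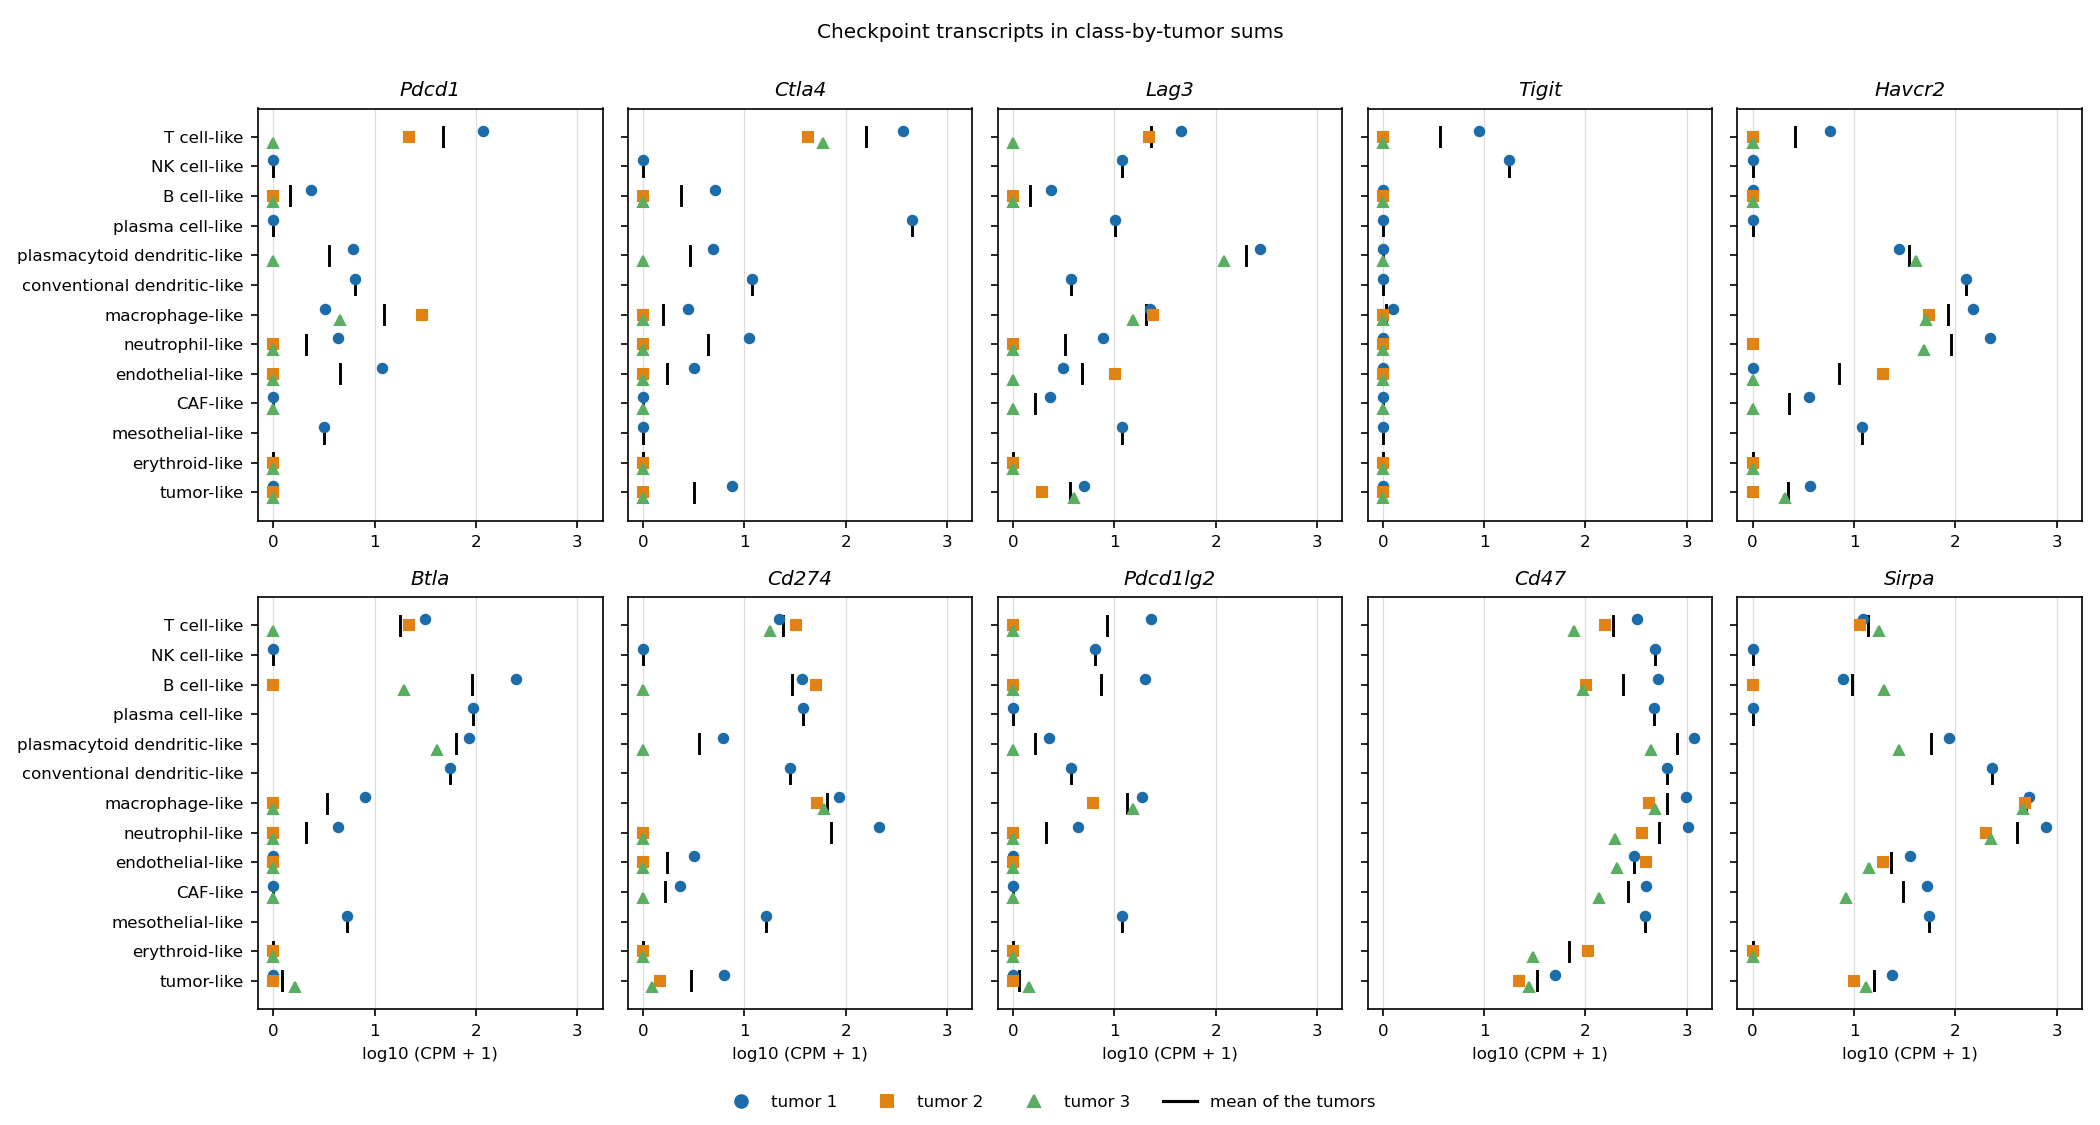
Level of each of the 10 genes, plotted as log10 of TMM-scaled CPM plus 1, in each cell class, with 1 point per tumor and a bar at the log10 of the mean CPM over tumors plus 1. T cell-like cells lead for Pdcd1 and Ctla4 among classes with sums in 2 or more tumors, plasmacytoid dendritic-like cells for Lag3 and Cd47, and myeloid cells for Havcr2, Cd274, Pdcd1lg2 and Sirpa, while tumor-like cells are the lowest of 13 classes for Cd47.

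The receptors Ctla4, Pdcd1 and Lag3 were higher in T cell-like cells than in the mean of the other classes. These 3 of 8 tested genes compare with 1.94% of all genes tested (217 higher and 0 lower). Ctla4, which outcompetes CD28, stood at 368, 41.7 and 58.6 CPM (156 ± 184, SD, n = 3) in T cell-like cells. It was above the mean of the other classes in all 3 tumors, and 231 of the 242 UMIs behind these values were in tumor 1, 24 of them in 1 cell. The difference was 6.54 on the log2 scale (SE 0.73, adjusted p = 9.79e-06, edgeR). A UMI of Ctla4 was found in 43 of 108, 4 of 46 and 4 of 68 T cell-like cells (39.8%, 8.70% and 5.88%). At 500 UMIs the shares were 12.0% (6.57 to 19.7), 4.35% (0.531 to 14.8) and 2.94% (0.358 to 10.2), against 0.277%, 0 and 0 of the tumor-like cells of these tumors (0.0295% of all 3391, and 0.147% as counted, at a median of 1638 UMIs). The 3 intervals at matched depth overlapped each other. The edgeR call without tumor 1 could not be made, since Ctla4 then failed the filter, and DESeq2 put it at 5.54 with an adjusted p of 0.593 (range over the alternatives 8.11e-33 to 0.593).

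Pdcd1 gave 118, 20.9 and 0 CPM in T cell-like cells (46.3 ± 62.9), 2.28, 28.3 and 3.61 CPM in macrophage-like cells (11.4 ± 14.7) and 0 in tumor-like cells of every tumor. Its levels in the 2 leading classes overlapped. In T cell-like cells it was 5.67 higher on the log2 scale (SE 0.86, adjusted p = 0.000507, edgeR, range over the alternatives 8.42e-15 to 0.00521), with tumor 3 below the mean of its other classes. The T cell-like cells of tumor 1 held 74 UMIs in 25 of 108 cells (23.1%), and 21 of these UMIs came from 1 cell. In tumor 2 a single cell of 46 held 2 UMIs, and in tumor 3 there were 0 of 68, which allows a share of cells with a UMI of up to 4.41%. At 500 UMIs the share was 4.63% (1.52 to 10.5) in tumor 1 and 0 in the others. None of 3391 tumor-like cells had a UMI, which allows up to 0.0885%. These limits are on cells with a UMI at this depth and not on cells that express the gene. DESeq2 gave Pdcd1 no adjusted p. Without tumor 1, Pdcd1 failed the filter and macrophage-like cells had the highest mean.

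Lag3, which binds MHC class II, was borderline in T cell-like cells at 44.6, 20.9 and 0 CPM (21.8 ± 22.3). The difference of 2.51 (SE 0.65, adjusted p = 0.0429, edgeR) was lost when any one tumor was left out, at the other clustering resolution, with corrected counts and with DESeq2 (range over the alternatives 0.00566 to 0.843). It was above the mean of the other classes in tumors 1 and 2. A UMI was found in 9.26%, 4.35% and 0 of T cell-like cells, and in 2.78%, 2.17% and 0 at 500 UMIs, against 0.554%, 0 and 0.0953% of tumor-like cells.

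Tigit, a receptor of T and NK cells, was nearly absent from the libraries, with 9 UMIs in all kept cells. These were 5 in T cell-like, 3 in NK cell-like and 1 in macrophage-like cells, for levels of 7.97, 0 and 0 CPM in T cell-like cells and 16.5 CPM in the single NK cell-like sum. Havcr2, which marks terminally exhausted T cells in other settings, was represented in T cell-like cells by 3 UMIs of 1 cell in tumor 1 (4.78, 0 and 0 CPM, difference −0.06, adjusted p = 1, edgeR). Btla stood at 30.3, 20.9 and 0 CPM (17.0 ± 15.5) in T cell-like cells, a difference of 2.68 that missed the threshold (adjusted p = 0.332, edgeR). Of these 3 genes, Havcr2 and Btla missed the threshold in T cell-like cells and Tigit failed the filter. With no filter, Tigit (4.06, adjusted p = 0.00609) and Btla (2.66, adjusted p = 0.0203, edgeR) passed it.

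Of 222 T cell-like cells, 67 (30.2%, 24.2 to 36.7) had a UMI of at least 1 of the 6 receptors Pdcd1, Ctla4, Lag3, Tigit, Havcr2 and Btla. At 500 UMIs there were 24 (10.8%, 7.05 to 15.7), against 8 of 3391 tumor-like cells (0.236%, 0.102 to 0.464), which were 0.831%, 0 and 0.238% of those of tumors 1, 2 and 3. The shares at 500 UMIs were 17.6% (10.9 to 26.1), 6.52% (1.37 to 17.9) and 2.94% (0.358 to 10.2) in tumors 1, 2 and 3, while unthinned shares were 50.9%, 17.4% and 5.88%. Tumor 1 was thus the highest at both depths, and its interval at 500 UMIs met that of tumor 2 but lay above that of tumor 3. As given above, T cell-like cells of tumors 2 and 3 had fewer T cell markers and more tumor markers. The part of this in the pooled shares and in the order of the tumors was not tested. In the 46 NK cell-like cells, a receptor was found in 5 (10.9%) as counted and in 1 at 500 UMIs. Unthinned, 27 T cell-like cells had 2 or more of the receptors (26 in tumor 1 and 1 in tumor 2), and 10 cells of tumor 1 had 3 or more. Pdcd1 and Ctla4 were the most frequent pair, found together in 18 of the 26 cells with Pdcd1 and the 51 cells with Ctla4. Lag3 came with Ctla4 in 10 of its 12 cells, Btla with Ctla4 in 7 of its 15 cells, and all 5 Tigit-positive cells had Pdcd1. These overlaps are of deep cells and are given with no test.

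**Figure D2:**
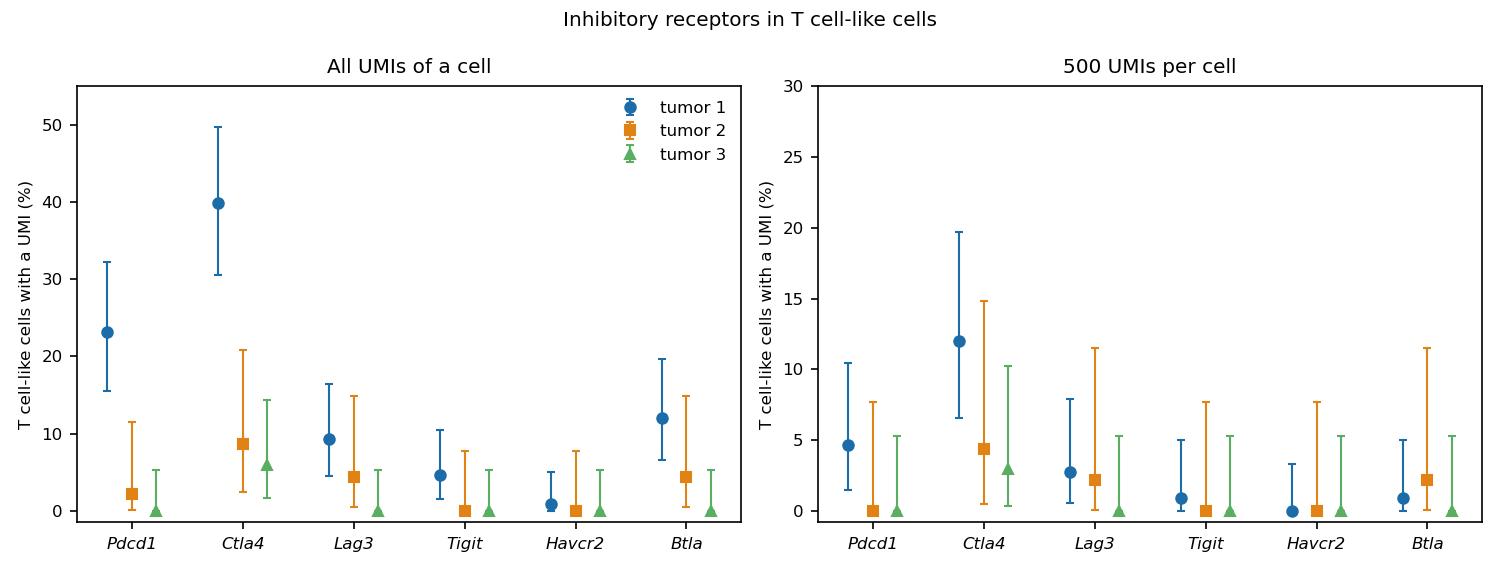
Percent of T cell-like cells with a UMI of each of the 6 receptors in tumors 1, 2 and 3, as counted and after thinning to 500 UMIs, with exact 95% binomial intervals on linear axes that differ between the 2 panels. The gap between tumor 1 and the others narrows on thinning, from 39.8% against 8.70% and 5.88% for Ctla4 to 12.0% against 4.35% and 2.94%.

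Within tumor 1, regulatory T cells could be set apart by Foxp3, their defining transcription factor. The 19 T cell-like cells with a Foxp3 UMI had a Ctla4 level of 758 CPM (623 to 914, unscaled counts summed over the cells) and 17 of them had a Ctla4 UMI. The other 89 cells had 199 CPM (165 to 237) and 26 with a UMI, at a median depth of 6028 UMIs against 6828. The same order was seen for Pdcd1, with 262 CPM (185 to 360) in cells with Foxp3 and 59.1 CPM (41.4 to 81.8) in those without. Lag3 was at 103 CPM (57.9 to 171) against 21.3 (11.4 to 36.5), with intervals that did not meet, while those of Btla (55.2, 23.8 to 109, against 18.1, 9.02 to 32.3) and of Cd274 (34.5, 11.2 to 80.4, against 13.1, 5.67 to 25.9) overlapped. The Cd47 levels were close, at 276 CPM (197 to 376) and 266 CPM (227 to 310). Cells with a Cd4 UMI and none of Cd8a or Cd8b1 (51 cells) had 379 CPM of Ctla4 (320 to 446) and 128 CPM of Pdcd1 (94.7 to 169). The 15 cells with a Cd8a or Cd8b1 UMI and none of Cd4 had 75.0 CPM (30.2 to 155) and 21.4 CPM (2.60 to 77.4). These are cells of a single tumor, so that the differences have no replicate check and no p. The intervals do not cover the spread between cells. In tumor 1 the top T cell-like cell held 24 of 231 Ctla4 UMIs, and the top cell for Pdcd1 held 21 of 74. In tumors 2 and 3, a single cell each had a Foxp3 UMI, and these cells held 1 and 2 UMIs of Ctla4.

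**Figure D3:**
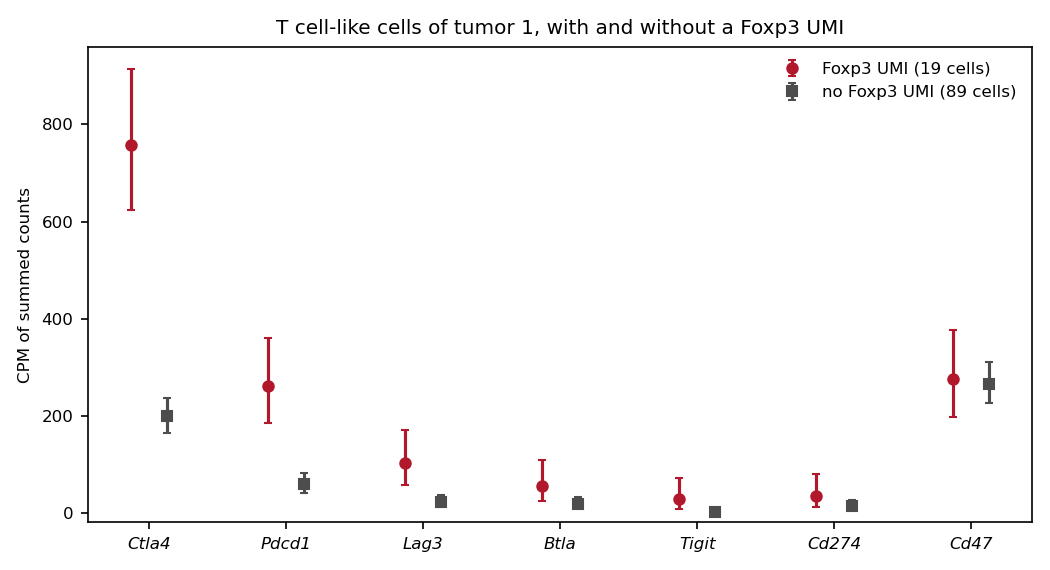
Level (unscaled CPM of summed counts, linear axis) of 7 checkpoint genes in the 19 T cell-like cells of tumor 1 with a Foxp3 UMI and the 89 without, with 95% Poisson intervals. These intervals cover counting error and not the spread between cells or tumors. Ctla4, Pdcd1 and Lag3 have intervals that do not meet, with 758 against 199 CPM for Ctla4, while those of Cd47 overlap.

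Ctla4 was also found in plasma cell-like cells of tumor 1, at 450 CPM in the only sum of this class with 10 or more cells. Without TMM scaling the level was 207 CPM, below the unscaled 306 CPM of T cell-like cells of that tumor. The 16 cells held 49 UMIs, no more than 8 in a cell, and 12 of them (75%, and 25% with an interval of 7.27 to 52.4 at 500 UMIs) had at least 1. The 12 positive cells had 38.7 CPM (unscaled) over the T cell markers. Cd3e, Trac, Trbc1, Cd5 and Bcl11b were at 0, and the other T cell markers, Cd3d, Cd3g, Trbc2 and Lck, made up this sum. Over the tumors, 12% of plasma cell-like cells had at least 2 T cell markers. The 6 plasma cell markers were all detected in the class and summed to 39584 CPM (unscaled). The part of T cell RNA in the Ctla4 signal was not tested. This is 1 tumor, and the class was not tested.

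Btla, a receptor for HVEM on resting lymphocytes, was the 1 of 8 tested genes called higher in B cell-like cells, and 0 were lower, against 2.22% and 0.0536% of all genes. It stood at 250.5, 0 and 18.75 CPM (89.8 ± 139.5), and 182 of the 183 UMIs behind these values were in tumor 1. The level was above the mean of the other classes in tumors 1 and 3, where tumor 3 held 1 UMI. The difference was 5.44 (SE 0.76, adjusted p = 0.00016, edgeR). DESeq2 did not call it (4.29, adjusted p = 0.387, range over the alternatives 1.89e-19 to 0.387). In tumor 1 the share was 113 of 204 cells (55.4%), or 8.33% (4.93 to 13.01) at 500 UMIs. The 14 B cell-like cells of tumor 2 had none, and 4% of the 25 cells of tumor 3 had a UMI, which fell to 0 on thinning. Tumor-like cells had 0.0590% at 500 UMIs. The mean share over tumors at this depth was higher in plasmacytoid dendritic-like cells (6.39%) than in B cell-like cells (2.78%). Plasmacytoid dendritic-like cells also had the highest mean level with corrected counts and without tumor 1, among classes with sums in 2 or more tumors. Without tumor 1, Btla failed the filter.

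Lag3 reached its highest level in plasmacytoid dendritic-like cells, the type I interferon producers, at 273 CPM in tumor 1 and 120.5 CPM in tumor 3 (197 ± 108, n = 2). Tumor 2 had only 4 such cells and gave no sum. The range lay above that of T cell-like cells, the next class, and the difference was 5.66 (SE 0.50, adjusted p = 2.27e-07, edgeR), in the same direction in both tumors and past the threshold in each alternative run (largest adjusted p = 0.0193). Of all 393 Lag3 UMIs, 56.2% were in this class, 26.2% in macrophage-like and 7.63% in T cell-like cells. A UMI was found in 69 of 90 (76.7%) and 9 of 24 cells (37.5%), or 14.4% (7.92 to 23.4) and 12.5% (2.66 to 32.4) at 500 UMIs. The shares at matched depth thus overlapped between the tumors. Cells of tumor 1 with and without a Lag3 UMI had 82.1 and 62.8 CPM of the T cell markers.

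Btla was higher in plasmacytoid dendritic-like cells too, at 85.1 and 40.15 CPM (difference 4.55, SE 0.92, adjusted p = 0.00341, edgeR). The call was absent from DESeq2 (3.68, adjusted p = 0.739, the largest over the alternatives). The share of Btla-positive cells was 46.7% in tumor 1 and 12.5% in tumor 3, or 4.44% and 8.33% at 500 UMIs. Lag3 and Btla were 2 of 8 tested genes against 4.64% of all genes, and 0 were lower, against 0.0447%. Cd47 (difference 1.59, adjusted p = 0.122) and Sirpa (2.31, adjusted p = 0.123) missed the threshold and passed it with the tumor as a block (1.64, adjusted p = 0.000587, and 2.27, adjusted p = 0.0379, edgeR). Macrophage markers were present in this class, summing to 2364.5 and 1329 CPM in tumors 1 and 3, and 97.8% and 50% of its cells had at least 2 of them.

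In macrophage-like cells the fitted difference was called higher for 4 of the 8 tested genes (Sirpa, Havcr2, Cd274 and Lag3, the last above the linear mean of the other classes in 1 tumor only) and lower for 0, against 10.6% and 0.0357% of all genes tested. Sirpa, the phagocyte receptor for CD47, was even across tumors at 534, 486 and 463 CPM (495 ± 36.2). It was 5.51 higher than the mean of the other classes (SE 0.48, adjusted p = 4.55e-08, edgeR), in 3 of 3 tumors, and kept past the threshold in each alternative run (largest adjusted p = 3.36e-05). A UMI was found in 84.5%, 54.5% and 58.4% of macrophage-like cells, and at 500 UMIs in 17.8%, 20% and 17.5%. At matched depth the 3 tumors were thus close together and above T cell-like cells (0.901% over the tumors) and B cell-like cells (0.412%), which should lack the gene. In all, 79.4% of 3221 Sirpa UMIs came from macrophage-like cells.

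Havcr2, whose product TIM-3 limits dendritic cell and macrophage activation, was a myeloid gene in these tumors, with 79.3% of its 798 UMIs in macrophage-like cells. The level was 148, 54.0 and 50.5 CPM (84.1 ± 55.1), a difference of 4.97 (SE 0.81, adjusted p = 0.000159, edgeR) in 3 of 3 tumors. DESeq2 gave 3.51 with an adjusted p of 0.185, the largest over the alternatives. The share of positive macrophage-like cells was 49.2%, 14.5% and 15.1%, or 5.87% (4.10 to 8.11), 1.82% and 3.01% at 500 UMIs, against 0.0295% of tumor-like cells. In conventional dendritic-like cells, which had a sum in tumor 1 only, the level was 127 CPM, with 17 of 31 cells positive (54.8%).

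Cd274 was at 84.0, 51.5 and 59.5 CPM (65.0 ± 16.9) in macrophage-like cells, 3.66 higher than the mean of the other classes (SE 0.75, adjusted p = 0.0015, edgeR) in 3 of 3 tumors, while DESeq2 gave 2.74 with an adjusted p of 0.244, the largest over the alternatives. This class held 71.6% of the 538 UMIs of this ligand of PD-1. A UMI was found in 31.6%, 14.5% and 14.5% of the cells, and in 3.28% (1.99 to 5.08), 1.82% and 1.81% at 500 UMIs. Tumor-like cells were at 5.30, 0.478 and 0.217 CPM, with 6 of 3391 positive cells (0.177%, and 0.0885% at 500 UMIs). The second PD-1 ligand, Pdcd1lg2, followed at 17.7, 5.15 and 14.4 CPM (12.4 ± 6.51), with 66.7% of its 120 UMIs in macrophage-like cells, but failed the filter and was not tested. With no filter its difference was 3.15 (adjusted p = 0.000981, edgeR). The share of cells with Pdcd1lg2 was 9.50%, 1.82% and 4.82%, or 0.864%, 0 and 0.602% at 500 UMIs, and 2 of 3391 tumor-like cells (0.0590%) had a UMI.

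Lag3 in macrophage-like cells was lower than in plasmacytoid dendritic-like cells, at 21.75, 23.2 and 14.4 CPM (19.8 ± 4.69). The fitted difference of 2.02 (SE 0.61, adjusted p = 0.0318, edgeR) did not match a higher level than the linear mean of the other classes, which was seen in 1 of 3 tumors. It was lost when any one tumor was left out, without re-splitting of mixed clusters, at the other clustering resolution, with corrected counts and with DESeq2 (1.30, adjusted p = 0.564, the largest over the alternatives). Pdcd1 (2.90, adjusted p = 0.112) and Cd47 (1.20, adjusted p = 0.131) missed the threshold in macrophage-like cells and passed it with the tumor as a block (3.22, adjusted p = 0.0292, and 1.49, adjusted p = 6.71e-05, edgeR), Cd47 also in the fit of 6 classes (1.70, adjusted p = 0.00634).

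In neutrophil-like cells Sirpa, Havcr2 and Cd274 were higher, 3 of 8 tested genes against 14.7% of all genes, and 0 were lower, against 0.616%. Sirpa stood at 779, 200 and 225.5 CPM (401.5 ± 327), above the mean of the other classes in 3 of 3 tumors (difference 5.21, SE 0.50, adjusted p = 4.99e-08, edgeR). Havcr2 was at 220, 0 and 48.3 CPM (89.5 ± 116; difference 5.22, SE 0.87, adjusted p = 0.000121, edgeR) and above the mean of the other classes in 2 of 3 tumors. For Cd274 the level was 210, 0 and 0 CPM (70.0 ± 121), so that its difference of 4.08 (SE 0.80, adjusted p = 0.000544, edgeR) came from tumor 1 alone. There, 29 of 236 neutrophil-like cells (12.3%) held 62 Cd274 UMIs, 12 of them in 1 cell, and at 500 UMIs the share was 4.24% (2.05 to 7.65). The 29 positive cells had 1649 CPM of the macrophage markers and 70500 CPM of the neutrophil markers, against 571 and 160155 CPM in the 207 cells without a Cd274 UMI. The part of macrophage RNA in this signal was not tested. Without tumor 1, neither Havcr2 nor Cd274 passed the filter.

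Set directly against macrophage-like cells, neutrophil-like cells differed in 0 of 8 tested genes (edgeR, 1 at an unadjusted p under 0.05; DESeq2 0), against 3.21% of all genes higher and 2.30% lower. The differences were 0.23 for Havcr2 (adjusted p = 0.95), 0.38 for Cd274 (adjusted p = 0.896), −0.27 for Sirpa (adjusted p = 0.89) and −0.24 for Cd47 (adjusted p = 0.922). Lag3 gave −2.28 (adjusted p = 0.241). Neutrophil-like cells had the highest mean of Havcr2 and Cd274 among classes with 2 or more sums, but without TMM scaling or with corrected counts macrophage-like cells led for both, and the ranges of the 2 classes overlapped.

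Cd47 was the most abundant and broadest of the 10 genes. Its mean level was highest in plasmacytoid dendritic-like cells (1168 and 442 CPM in tumors 1 and 3, 805 ± 513) and was 991, 425 and 481 CPM in macrophage-like cells (632 ± 312) and 1033, 358 and 193 CPM in neutrophil-like cells (528 ± 445). Endothelial-like cells had 303, 397 and 202 CPM (301 ± 97.3), and T cell-like cells 322, 157 and 75.4 CPM (185 ± 126). Among classes with sums in 2 or more tumors, the ranges of neighbors in this order overlapped all the way down. With tumor 1 left out, macrophage-like cells came first. Cd47 missed the threshold in each of the 6 non-tumor classes tested, among them neutrophil-like cells (0.94, adjusted p = 0.262, and 1.03, adjusted p = 0.00933, edgeR, with the tumor as a block).

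Tumor-like cells were the lowest of 13 classes for Cd47, at 49.1, 21.0 and 26.5 CPM (32.2 ± 14.9). The difference was −3.48 (SE 0.69, adjusted p = 0.00392, edgeR) with lower levels in 3 of 3 tumors, and it was the only one of the 8 tested genes to be lower, against 1.75% of all genes, and 0 were higher, against 17.1%. The erythroid-like class, next above, overlapped it. Tumor-like cells made up 60.0% of kept cells, at a median depth of 1638 UMIs, and gave 2.63% of the 7720 Cd47 UMIs. Macrophage-like cells made up 15.1%, at a median depth of 6195 UMIs, and gave 56.4%. These shares of UMIs depend on depth as well as on level. A UMI was found in 8.59%, 4.08% and 5.53% of tumor-like cells, and at 500 UMIs in 4.99% (2.98 to 7.77), 1.07% (0.516 to 1.96) and 1.62% (1.12 to 2.26). At the same depth the shares were 33.0%, 12.7% and 10.8% in macrophage-like, 12.0%, 8.70% and 5.88% in T cell-like and 18.2%, 16.1% and 13.6% in neutrophil-like cells, each above the tumor-like cells of the same tumor. In smaller classes the share at 500 UMIs was not above that of tumor-like cells in every tumor. It was 0 in the 10 and 13 erythroid-like cells of tumors 2 and 3, and ranged from 0 to 16.2% in B cell-like cells. The erythroid-like levels, 105 and 29.5 CPM in tumors 2 and 3, were above the tumor-like levels of the same tumors. In the authors' corrected counts, the share of tumor-like cells with Cd47 was 79.2%, 2.58% and 4.81% in tumors 1, 2 and 3, so that tumor 1 held corrected Cd47 counts in far more cells than raw ones (31 of 361). With corrected counts the difference was −1.38 (adjusted p = 0.249, edgeR, the largest over the alternatives), while the median over all genes moved from 0.29 to 0.56. The split of all called genes, 1919 higher and 196 lower, was 861 and 1371 with the 6 classes that had a sum in every tumor and 272 and 1860 with DESeq2, and Cd47 was lower under each.

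The remaining genes were at or near 0 in tumor-like cells. Sirpa gave 22.5, 9.07 and 12.15 CPM (14.6 ± 7.06), Ctla4 6.63, 0 and 0, Lag3 3.98, 0.955 and 3.04, Havcr2 2.65, 0 and 1.09, and Btla 0, 0 and 0.651. Sirpa was found in 1.66%, 0.644% and 0.763% of tumor-like cells at 500 UMIs. In the fit of 6 classes, Pdcd1 (−5.34, adjusted p = 0.02), Cd274 (−4.11, adjusted p = 0.0227) and Sirpa (−1.86, adjusted p = 0.00514, edgeR) were lower in tumor-like cells, which they were not in the fit of all classes. In endothelial-like cells, 0 of the 8 tested genes passed the threshold (edgeR, 0 at an unadjusted p under 0.05; DESeq2 0), against 11.0% of all genes higher and 0.0893% lower.

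Among macrophage-like cells, sub-clusters with the markers of the Pecam1+, Ccr2+ and Apoe+ subsets were compared, and 156 cells whose leading genes were tumor genes were given no subset name. Pecam1+-like cells numbered 302, 40 and 58, Apoe+-like cells 80, 14 and 32, and Ccr2+-like cells reached 10 or more in tumor 1 only (159 cells), so that each subset against the mean of the other 2 rested on 7 sums and 5776 genes. Lag3 was higher in the Apoe+-like subset, the phagocytic macrophages with complement C1q genes, at 56.4, 73.4 and 25.0 CPM (51.6 ± 24.6), against 6.02, 0 and 0 CPM in Pecam1+-like cells and 2.02 CPM in Ccr2+-like cells. The ranges did not meet, and the difference was 4.11 (SE 0.88, adjusted p = 0.0256, edgeR, 3 of 3 tumors), 1 of 6 tested genes against 3.64% of all genes, with 0.952% lower. It was lost when the 156 cells were counted as Apoe+-like (3.85, adjusted p = 0.0525) and without tumor 2 (3.71, adjusted p = 0.0817, the largest over the alternatives). Lag3 failed the filter and was not tested without tumor 1, with sums of at least 5 cells, at the other clustering resolution and with corrected counts. A Lag3 UMI was found in 23 of 80, 8 of 14 and 3 of 32 Apoe+-like cells, and in 2.50%, 7.14% and 0 at 500 UMIs.

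Cd274 and Pdcd1lg2 were at their highest mean in the Pecam1+-like subset, the patrolling-monocyte-like cells marked by Ace, Treml4 and Fcgr4. Cd274 stood at 109, 65.9 and 119 CPM (97.8 ± 28.1), against 49.8, 24.5 and 4.99 CPM (26.4 ± 22.5) in Apoe+-like and 12.8 CPM in Ccr2+-like cells, with ranges that did not meet. The difference of 2.29 missed the threshold in edgeR (adjusted p = 0.0802) and passed it in DESeq2 (2.30, adjusted p = 0.0265) and with the tumor as a block (2.51, adjusted p = 0.000223). A Cd274 UMI was found in 139 of 302, 10 of 40 and 22 of 58 Pecam1+-like cells (46.0%, 25.0% and 37.9%). At 500 UMIs the shares were 5.63%, 5% and 5.17% in Pecam1+-like cells and 0 in Apoe+-like cells of all 3 tumors. Pdcd1lg2 was at 26.7, 11.0 and 26.8 CPM (21.5 ± 9.10), against 4.15, 0 and 4.99 CPM in Apoe+-like cells, and was not tested for lack of counts.

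No other member passed the threshold between subsets in the main edgeR fit. In the Pecam1+-like and Ccr2+-like subsets, 0 of 6 tested genes were called (2 and 1 at an unadjusted p under 0.05), and DESeq2 called 1 and 0, against 0.485% and 0.173% of all genes higher and 0.537% and 0.190% lower. Cd47 was at 1098, 565 and 713 CPM in Pecam1+-like and 432, 334 and 305 CPM in Apoe+-like cells (difference for Pecam1+-like cells 0.82, adjusted p = 0.363, and 0.99, adjusted p = 0.0166, edgeR, with the block). Sirpa was at 536, 750 and 589 CPM in Apoe+-like and 421, 346 and 398.5 CPM in Pecam1+-like cells (difference for Apoe+-like cells 0.83, adjusted p = 0.149, edgeR, smallest over the alternatives 0.0226). It passed the threshold at the other clustering resolution and with corrected counts, where Lag3 was not tested. The Cd47 ranges and the Sirpa ranges of these subsets stood apart in these 3 tumors. Havcr2 ranges overlapped, at 153, 71.3 and 57.5 CPM against 103, 57.1 and 44.9 CPM. Ccr2+-like cells had a lower Cd274 level with the block only (−2.13, adjusted p = 0.337, and −2.50, adjusted p = 0.00998, edgeR). Pdcd1 reached 54.9 CPM in Pecam1+-like cells of tumor 2, from 10 UMIs in 7 of 40 cells, against 2.58 and 7.66 CPM in tumors 1 and 3.

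**Figure D4:**
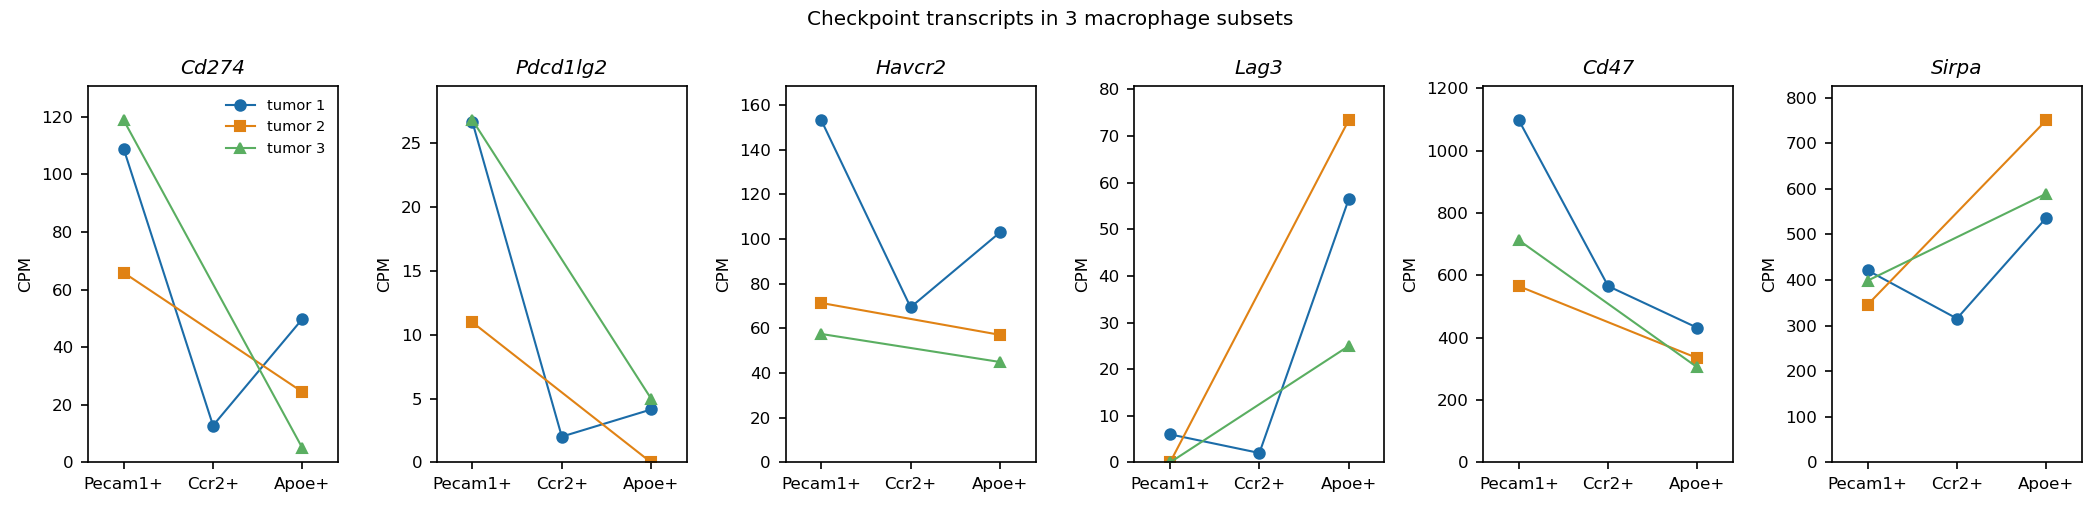
Level (TMM-scaled CPM of summed counts, linear axes) of 6 checkpoint genes in the Pecam1+-like, Ccr2+-like and Apoe+-like macrophage subsets, with 1 point per tumor and lines that join the points of a tumor. Lag3 is higher in Apoe+-like cells (25.0 to 73.4 CPM against 0 to 6.02 CPM in Pecam1+-like cells), while the 3 Cd274 points of Pecam1+-like cells (65.9 to 119 CPM) lie above all others.

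The 10 genes were set beside 59 other checkpoint-related genes in 6 lists, which are described by counts and medians. In T cell-like cells, 8 of 12 tested costimulatory receptors and ligands were higher (Cd28, Icos, Cd226, Cd27, Tnfrsf4, Tnfrsf9, Tnfrsf18 and Cd40lg), with a median log2 difference of 4.86, against 0.34 over all genes and 2.24 over the 8 tested members. Over all genes tested, 1.94% were called higher in this class. Of the exhaustion and regulatory factors 6 of 8 were higher (median 4.45), of effector genes 3 of 5 (Il2, Gzmb and Prf1), and of the other inhibitory receptors and ligands 1 of 11 (Cd96, median 0.69). Icos, an inducible costimulator, stood at 191, 93.9 and 83.8 CPM (difference 6.73, SE 0.65, adjusted p = 3.47e-06), Foxp3 at 94.0, 10.4 and 8.38 CPM (7.60, adjusted p = 0.000175) and Cd40lg, the ligand that licenses antigen-presenting cells, at 60.55, 31.3 and 8.38 CPM (7.02, adjusted p = 0.000258, edgeR). Of the 222 T cell-like cells, 93 had a UMI of Cd28, 59 of Tox and 83 of Tcf7, and 78, 48 and 76 of these were in tumor 1. By contrast, Il2 was found in 4, Tnf in 5, Ifng in 3, Gzmb in 7 and Prf1 in 17. All 28 Gzmb UMIs were in tumor 1. Of the 11 Il2 UMIs, 6 were in 1 cell of tumor 2 and 0 in tumor 3, so both calls rest on few cells.

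Myeloid inhibitory receptors and do-not-eat-me ligands were the list of the phagocytes, with 7 of 9 tested genes higher both in macrophage-like cells (median 4.89, against 0.57 over all genes) and in neutrophil-like cells (5.31, against 0.42). In macrophage-like cells they were led by Clec4a2 (336, 257 and 270 CPM; difference 5.97, adjusted p = 6.52e-07), Pirb (335, 149 and 162 CPM; 5.47, adjusted p = 4.87e-06) and Siglece (166, 95.2 and 114 CPM; 5.44, adjusted p = 1.66e-06, edgeR), all receptors with inhibitory ITIM motifs. Lilrb4a (606, 91.6 and 48.3 CPM) and Siglece (667, 141 and 80.5 CPM) led in neutrophil-like cells, with differences of 6.98 and 6.86. Pirb was higher there too (6.12, adjusted p = 4.64e-07, edgeR). Inhibitory T cell receptors and their ligands were higher for 6 of 11 tested genes in macrophage-like (10.6% of all genes), neutrophil-like (14.7%) and endothelial-like cells (11.0%), with medians of 2.66, 2.66 and 2.31. In endothelial-like cells these included Nectin2, a ligand of TIGIT (228, 175 and 104 CPM; 6.39, adjusted p = 1.75e-06), and Cd200 (344, 231 and 163 CPM; 4.54, adjusted p = 2.98e-06, edgeR). Thbs1, of the list of myeloid inhibitory receptors and do-not-eat-me ligands, was also higher in endothelial-like cells (5.03, adjusted p = 1.54e-05, edgeR).

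Plasmacytoid dendritic-like cells were higher for 4 of the 11 inhibitory receptors and ligands (median 1.48, against 0.25 and 4.64% called higher over all genes), with the collagen receptor Lair1 at 793 and 335 CPM (difference 7.16, adjusted p = 3.05e-07) and Cd244 at 82.5 and 66.9 CPM (4.09, adjusted p = 0.0014, edgeR). B cell-like cells were higher for Siglecg, an inhibitory receptor of B cells, at 351, 49.6 and 112 CPM (6.08, adjusted p = 2.46e-05), and for the phosphatase gene Inpp5d (2.63, adjusted p = 0.0387, edgeR). Siglecg was higher in plasmacytoid dendritic-like cells as well (3.96, adjusted p = 0.0255, edgeR). In tumor-like cells Tox was higher at 38.5, 53.5 and 39.05 CPM (2.01, adjusted p = 0.0211), and Ptpn6, the phosphatase SHP-1 recruited by ITIM-bearing receptors, was lower at 19.9, 2.39 and 2.39 CPM (−3.63, adjusted p = 0.0173, edgeR). Neutrophil-like cells exceeded macrophage-like cells in Cd24a, the ligand of Siglec-G (3.26, adjusted p = 0.0103), and Entpd1 (2.55, adjusted p = 0.0412), and were below them in the scavenger receptor gene Lrp1 (−4.42, adjusted p = 0.00387, edgeR). Among the subsets, Apoe+-like cells were higher in Entpd1 (2.67, adjusted p = 0.0079) and the TIM-3 ligand Lgals9 (2.17, adjusted p = 0.0347) and lower in Ceacam1 (−2.97, adjusted p = 0.0356) and Cd244 (−2.01, adjusted p = 0.0148, edgeR). Thbs1, a ligand of CD47, was lower in Pecam1+-like cells (−3.17, adjusted p = 0.0131), as was Lgals9 (−2.83, adjusted p = 0.0461), and Ccr2+-like cells, which have a sum in tumor 1 only, exceeded the other subsets in Thbs1 (3.13, adjusted p = 0.00602, edgeR).

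Over the 28 sums of a class in a tumor, the genes whose log2 CPM followed each member most closely are given as a description, since sums of a tumor share its library and depth. Ctla4 was nearest to Cd28 (Pearson r = 0.864), Themis (0.862) and Cd40lg (0.852), and Pdcd1 to Cd6 (0.754), Cd4 (0.725) and Tnfsf8 (0.698). Lag3 went with Plxdc1 (0.850), P2ry14 (0.802) and Tmem229b (0.798), and Btla with H2-DMb2 (0.836), Tnfrsf13b (0.834) and Irf4 (0.794). Havcr2 was nearest to Cd300c2 (0.911), Cd68 (0.903) and Gm21188 (0.890), and Cd274 to Gpr132 (0.821), A630001G21Rik (0.765) and Ms4a6b (0.755). Sirpa was nearest to its paralog Sirpb1c (0.909), for which the assignment of reads between the copies is uncertain, then to Fgr (0.908) and Lrrc25 (0.904), and Cd47 to Elf4 (0.899), Tmbim6 (0.896) and Nfkbie (0.893).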

How the data were processed

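Single-cell RNA of 3 whole TH-MYCN tumors was measured by droplet capture. The authors deposited raw counts of UMIs per gene and barcode (Cell Ranger 3.1.0 and build mm10 in the submitters' processing notes), and normalized values made in Seurat, natural logs of corrected counts to which 1 was added, for the barcodes left once ambient RNA, doublets and low-quality barcodes had been removed with limits chosen for each tumor. The deposited natural log values defined the kept cells and gave 1 alternative, for which 100% of values were whole numbers after back-transformation. No further doublets were removed. A total of 30464 symbols (98.1%) were found in the GENCODE M21 annotation, from which positions come. Where 3′ reads are counted with strand, antisense neighbors are kept apart, but overlapping genes of the same strand (Ctla4 and Rpl18-ps1) and paralogs may share reads.

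Raw counts were clustered with Seurat 5.3.0 in R 4.3.3, with the 10 genes and the 59 listed genes held out (2000 variable genes, canonical correlation, 30 dimensions, 20 neighbors, resolution 1). A cluster was named where at least 3 markers of a type reached a fold of 2 and had a UMI in 10% of its cells. Named non-tumor clusters in which under 80% of cells had 2 of their own markers were split again without integration, and macrophage-like cells were clustered once more at a resolution of 0.5. The re-splitting, and the decision to give no subset name to a macrophage cluster led by tumor genes, were made after the clusters were seen. Sums of at least 10 cells (23710 to 5573273 UMIs) were tested with edgeR 4.0.16 (filter on low counts, TMM, quasi-likelihood, adjusted p under 0.05) and the fits were checked on simulated counts, where the class fit called more unchanged genes than its threshold allows and the subset fit did not. Shares were taken after seeded thinning to 500 UMIs in Python 3.11.15. The replicates are 3 tumors, but the main fit treats the sums of all classes as independent, without the tumor as a block. Its p values draw on a spread shared by all classes and do not measure the spread of a single class between the tumors. A class with a lone sum was assumed to vary like the others.

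All 10 genes are named in the text. Of the listed genes, up to 3 in each direction per comparison were named, with the largest fold past the threshold and the same direction in every tumor. The 3 genes nearest to each tested member by correlation were named too. For T cell-like cells, further listed genes were named outside this rule, where calls or cells with a UMI were counted. The members and lists were chosen with earlier results of these data known. The classes of a tumor share an animal and are therefore paired. Over 6 classes and 11194 genes, the correlation of deviations from class means had a median of 0.236 (−0.0128 to 0.614) for 45 pairs of sums within a tumor and of −0.188 (−0.436 to 0.223) for 90 pairs across tumors. Alternatives were DESeq2 1.42.0, no filter, the tumor as a replicate block, sums of at least 5 cells, a resolution of 0.6 (0.3 for macrophages), corrected counts, no TMM scaling, thinning to 1000 UMIs and leaving out each tumor. No re-splitting, a fit of the 6 classes with a sum in every tumor, and counting the cluster led by tumor genes as Apoe+-like were added after the data were seen.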

Additional observations from a re-analysis of the deposited data

Results flagged for a closer look

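UMIs of all 10 genes were also found in the barcodes that the authors left out of the normalized matrices (1343, 3106 and 3523 barcodes in tumors 1, 2 and 3), which the comparisons do not use. These barcodes had median mitochondrial shares of 27.9%, 35.0% and 37.7%, against 3.17%, 3.125% and 2.44% in kept cells, and for 9 genes, all but Tigit, the count exceeded the 3 UMIs that a count of 0 allows. Cd47 had 2873 UMIs there, or 295, 49.2 and 37.0 CPM in tumors 1, 2 and 3 against 540, 135 and 101 CPM in kept cells. Sirpa had 1040 UMIs in the left-out barcodes, Lag3 132, Ctla4 105, Havcr2 76, Cd274 66, Btla 41, Pdcd1 30 and Pdcd1lg2 11. For Ctla4, 98 of these UMIs were in 51 barcodes of tumor 1, at 20.9 CPM against 24.6 CPM in the kept cells of that tumor. The left-out barcodes were given no class, and which cells these transcripts came from was not tested.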

How the results depend on the processing

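Of 784 values of single genes under alternatives, 733 kept their side of the threshold, 30 gained and 21 lost significance. A called value reversed its direction in 0 cases. A change of sign between values that both missed the threshold was counted as kept. Counts of members called moved as follows, with the cause not tested unless said. In T cell-like cells (3 called) DESeq2 called 0 and no filter 6. In B cell-like cells (1) DESeq2 called 0, no filter 2 and the fit of 6 classes 2. In macrophage-like cells (4) DESeq2 called 1. In plasmacytoid dendritic-like cells (2) DESeq2 called 1, no filter 4 and the replicate block 4. In tumor-like cells (1) DESeq2 called 3, corrected counts 0 and the fit of 6 classes 4. In Pecam1+-like cells (0) DESeq2 called 1, no filter 3, the replicate block 2 and corrected counts 1, in Ccr2+-like cells (0) the replicate block 1, and in Apoe+-like cells (1) sums of at least 5 cells 0 and the subset with the cluster led by tumor genes 0. The count for Apoe+-like cells stayed at 1 at the other clustering resolution and with corrected counts, but the gene called there was Sirpa and not Lag3. Leaving out each tumor gave 0 to 2 calls in T cell-like, 0 to 1 in B cell-like, 2 to 3 in macrophage-like, 1 to 3 in neutrophil-like, 0 to 1 in endothelial-like and 0 to 1 in Apoe+-like cells, and 0 to 1 for neutrophil-like against macrophage-like cells. Without tumor 1 only Lag3, Cd47 and Sirpa passed the filter, so that fewer genes were tested. The fit of 6 classes holds no plasmacytoid dendritic-like cells, and the Ccr2+-like subset could not be tested without tumor 1.

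With the tumor as a replicate block, counts over all genes rose from 28 higher and 31 lower to 286 and 198 in Pecam1+-like, from 10 and 11 to 99 and 142 in Ccr2+-like, from 210 and 55 to 433 and 344 in Apoe+-like, and from 217 and 0 to 439 and 20 in T cell-like cells. Beyond the blocked values given with the results, the pairing changed no call of a member. With DESeq2 the split in T cell-like cells was 40 higher and 6 lower. The class with the highest mean was as reported for 10 genes, for 8 without TMM scaling, for 7 with corrected counts and for 4 to 10 when a tumor was left out. Without thinning, the share of T cell-like cells with a receptor was 30.2% and not 10.8%. Tigit and Pdcd1lg2, with 9 and 120 UMIs, failed the filter in both main fits.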
